A study of Mus musculus with 2 samples.

Results

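The 7 genes described here are the blood cell microRNAs of a small-RNA sequencing profile of the embryonic mouse face: the erythroid genes Mir451a, Mir144 and Mir486 and the leukocyte genes Mir223, Mir150, Mir155 and Mir146. They were chosen by name, from what is known of the cells that make them, with earlier results of these data known. They are 7 of the 1973 microRNA loci in the count tables. All 7 were found in the tables through their gene identifiers. The tissue was the facial prominence, the set of embryonic swellings that grow and fuse into the face, dissected from B6NCrl embryos of both sexes at 11.5 days. There was 1 group of 2 biological replicates, each a pool: 109 embryos in replicate 1 and 88 embryos in replicate 2. The embryos were healthy, and the labels name no treatment, no mutant allele and no second tissue. Both pools carry the same donor entry, so the spread between them may be partly technical. With 1 group there was no condition to test, and the values below compare genes within the libraries and the pools with each other, with no p-values.

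MicroRNAs are cut from hairpin precursors and lower the output of mRNAs that match their seed, the bases at positions 2 to 8. Red cell precursors make Mir144 and Mir451a from one primary transcript under the erythroid factor GATA1. Mir451a is unusual in that its hairpin is cut by the Argonaute protein AGO2 and not by Dicer. Mir486 lies in Ank1, the gene of the red cell membrane protein ankyrin, and is made in striated muscle as well as in red cells. Mir223 marks granulocytes, monocytes and platelets, Mir150 mature lymphocytes, and Mir155 activated lymphocytes and macrophages. Mir146, whose product is miR-146a, is induced by NF-kB and dampens its signalling through Traf6 and Irak1. A dissected embryonic face holds blood in its vessels and macrophages in its mesenchyme.

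Sequences from RefSeq (build GRCm38.p6) were matched by symbol for 6 of the 7 genes as mature products and for 5 as hairpins; no sequence of Mir486 was used here. The hairpins of the cluster members Mir144 and Mir451a are shown first, since these neighbours behaved differently between the pools. Capitals mark the mature products.
Mir144 (chr11:78073005-78073070, plus strand): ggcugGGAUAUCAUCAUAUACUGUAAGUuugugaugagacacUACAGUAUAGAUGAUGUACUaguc
Mir451a (chr11:78073170-78073241, plus strand): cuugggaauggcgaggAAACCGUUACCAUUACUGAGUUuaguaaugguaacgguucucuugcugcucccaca
In the fold predicted for Mir144, miR-144-5p lay wholly in the 5′ arm and miR-144-3p wholly in the 3′ arm, on either side of a loop of 6 bases. In that predicted for Mir451a, the single mature product ran from base 17 to base 38 of 72, with 18 bases in the 5′ arm and 4 in the terminal loop.

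The mature sequences below let the products be told apart by their seeds, which are in capitals. The products shown for Mir223, Mir155, Mir146 and Mir142 are those usually called the main strand. For Mir150 only miR-150-3p was used, so the statements on seeds and matches do not cover its 5′ product, the usual main strand. Mir142 and Mir146b are related loci shown for comparison.
miR-451a: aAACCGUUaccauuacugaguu
miR-144-3p: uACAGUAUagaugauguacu
miR-223-3p: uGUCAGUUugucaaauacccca
miR-150-3p: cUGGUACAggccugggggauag
miR-155-5p: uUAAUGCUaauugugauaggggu
miR-146a-5p: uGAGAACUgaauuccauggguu
miR-146b-5p: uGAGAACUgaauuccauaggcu
miR-142a-5p: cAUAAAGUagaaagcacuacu
miR-142a-3p: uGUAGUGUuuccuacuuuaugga
None of the 10 listed mature products of the 7 genes shared a seed with another of the 7. Over the RefSeq sequences used here only miR-146a-5p shared its seed with a further mature microRNA, miR-146b-5p. These differ at 2 of 22 bases, G18A and U21C, counted from the 5′ end with the miR-146a-5p base first. Apart from miR-451a, whose complement lies in the hairpin annotated on the other strand of the same bases, no listed product of the 7 genes occurred whole in another hairpin of the table on either strand. The counts are per hairpin, so the 5′ and 3′ products of a gene cannot be separated in them.

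The sense strand of all loci together held 1941745 counts in the first pool (replicate 1) and 2319881 in the second (replicate 2). Levels are given in CPM, counts scaled to a total of 1000000, so 1 count was worth 0.515 CPM in replicate 1 and 0.431 CPM in replicate 2. Reads placed at several positions are outside the counts; they made up 32.9% and 33.3% of mapped reads. Levels were not scaled to hairpin length, since a read covers 1 short product, and the efficiency of ligation and amplification, which varies with sequence, also enters a level. Unless stated otherwise, intervals are exact (Clopper-Pearson) 95% intervals that cover counting error only. In bulk tissue, fewer cells of a type and less RNA per cell cannot be told apart. Only microRNAs were counted, so the cell types were not checked against protein-coding markers such as globins.

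All 7 blood cell genes were present in both pools at modest levels. Each reached at least 10 counts in both libraries, as did 17.8% of all 1973 loci. Together they made up 898 CPM in replicate 1 against 1337 CPM in replicate 2, or 0.0898% and 0.134% of the counts. Their mean levels ran from 10.8 to 424 CPM, against a median of 192 CPM over the 351 loci that reached that minimum. Only Mir223 and Mir451a lay above that median. For scale, the endothelial Mir126a, which marks the lining of the vessels that carry blood, stood at 39731 ± 981 CPM (SD, n = 2).

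**Figure D1:**
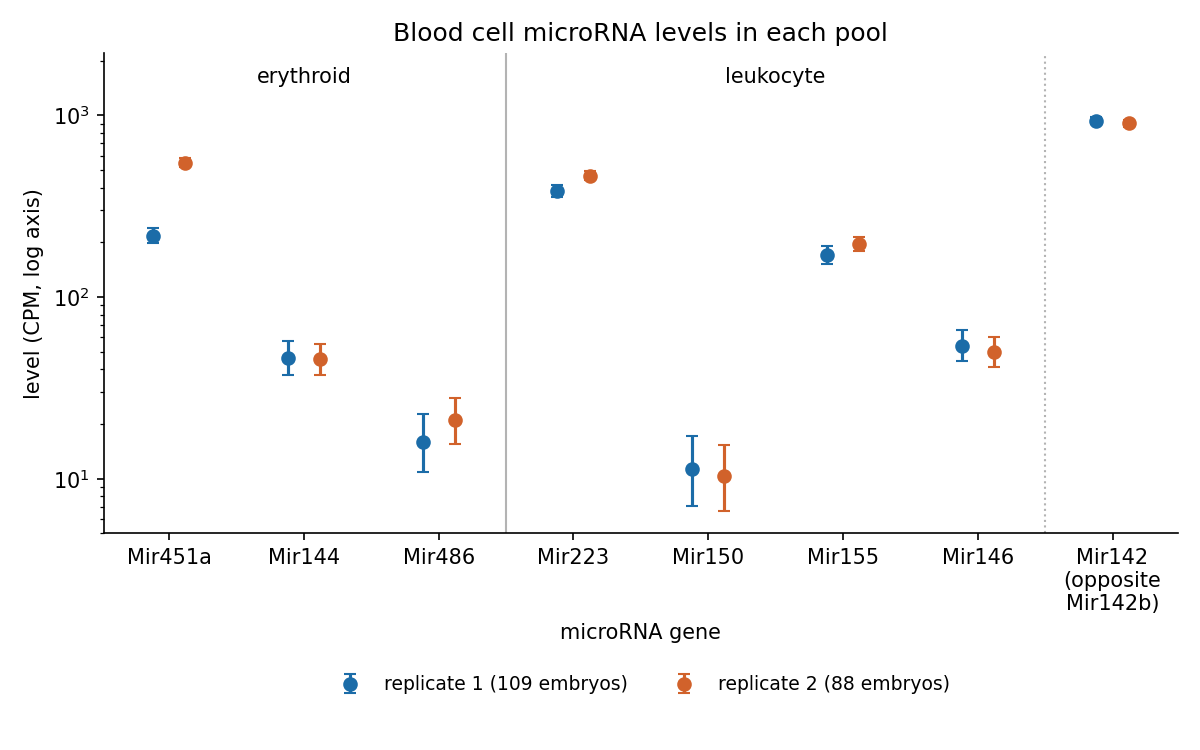
Level of each gene in CPM on a log axis, with 1 point per pool and exact 95% counting intervals; erythroid genes are on the left, leukocyte genes in the middle and Mir142, read from the strand opposite Mir142b, on the right. The pools lie apart at Mir451a, with 218 and 547 CPM, and close together at Mir144, with 46.4 and 45.7 CPM.

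Mir451a, the erythroid product that accumulates as red cells mature, was the leading erythroid gene in both pools. It is annotated on the plus strand of chromosome 11 (GRCm38), and Mir451b is annotated on the opposite strand of the same bases. It had 423 counts in replicate 1, or 218 CPM (198 to 240), and 1270 counts in replicate 2, or 547 CPM (518 to 578). The intervals were far apart, and replicate 2 was 2.51-fold higher. All of its counts were on the sense strand, so none came from the side of Mir451b.

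Mir144, which lies 99 bases upstream of Mir451a on the same strand, did not share that difference. It had 90 counts, or 46.4 CPM (37.3 to 57.0), in replicate 1 and 106 counts, or 45.7 CPM (37.4 to 55.3), in replicate 2. The intervals overlapped almost wholly, and the log2 ratio of replicate 2 over replicate 1 was -0.02 (-0.44 to 0.40). Its mean of 46.0 CPM put it at place 258, between Mir1198 and Mir26a-2.

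The level of Mir451a relative to its cluster neighbour therefore differed between the pools. Mir451a exceeded Mir144 by 4.68-fold in replicate 1 and by 11.9-fold in replicate 2, a log2 ratio of 2.23 and 3.58 (mean 2.90 ± 0.95, SD, n = 2). The change of this log2 ratio was 1.35, with a 95% interval of 0.91 to 1.79 from counting error. This interval is a normal approximation and not an exact one. With the coefficient of variation between pools that edgeR estimated over all loci, 16.7%, added to counting error, the interval was 0.31 to 2.39. A ratio of neighbours within a library does not depend on how the libraries are scaled.

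**Figure D2:**
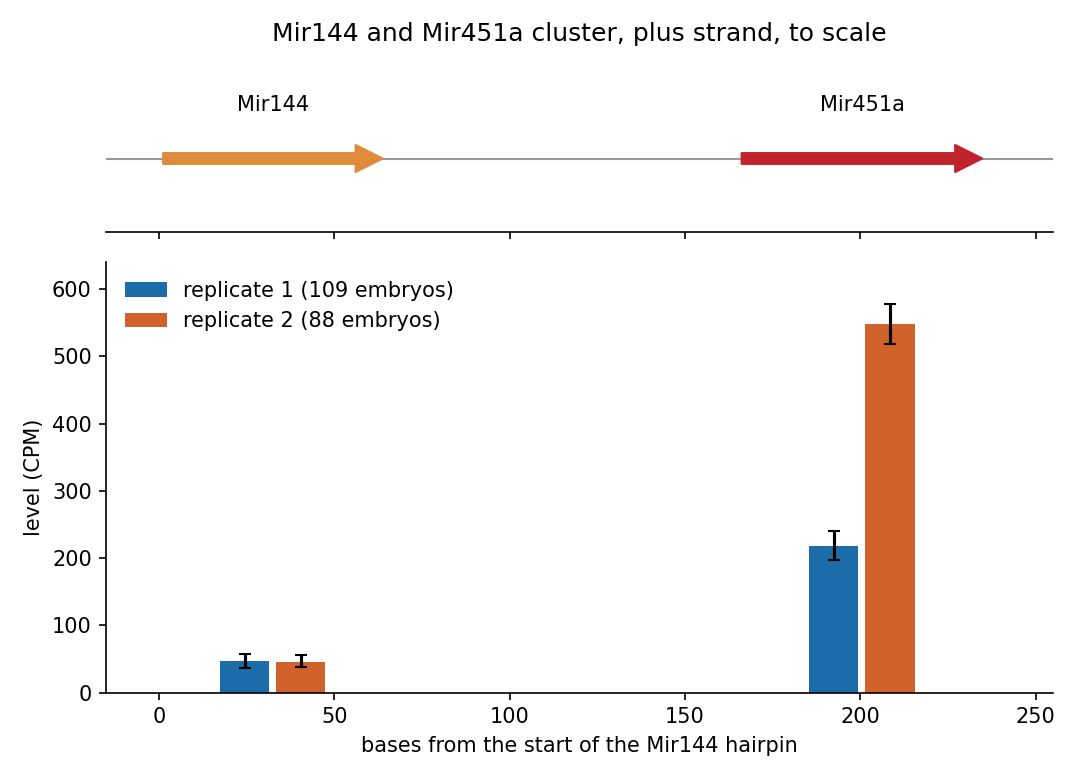
The Mir144 and Mir451a hairpins drawn to scale as arrows, in bases from the start of Mir144, above bars of their level in CPM in each pool with exact 95% counting intervals. The Mir144 bars are at 46.4 and 45.7 CPM, while those of Mir451a are at 218 and 547 CPM.

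Mir486, in an intron of Ank1 on chromosome 8 (23142555 to 23142682, plus strand), was the lowest of the erythroid genes. It had 31 counts, or 16.0 CPM (10.8 to 22.7), in replicate 1 and 49 counts, or 21.1 CPM (15.6 to 27.9), in replicate 2. These intervals overlapped, and the log2 ratio of 0.40 had an interval of -0.27 to 1.10. On its opposite strand, where Mir3107 (also called Mir486b) is annotated, 5 and 3 counts were found. Mir3107 itself was not analysed here, and reads that place equally well on more than 1 position would be missing from Mir486. The level of Mir486, its place in the order, its share of the erythroid sum and that sum itself may therefore be too low.

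Mir223, the myeloid gene on the X chromosome (96242817 to 96242926, plus strand, in an exon of F630028O10Rik), had the highest mean of the 7. It had 742 counts, or 382 CPM (355 to 411), in replicate 1 and 1081 counts, or 466 CPM (439 to 495), in replicate 2. The intervals did not overlap, although the difference was small, at a log2 ratio of 0.29 (0.15 to 0.42). Its mean was 424 ± 59.3 CPM.

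Mir155, in an exon of Mir155hg on chromosome 16 (84714140 to 84714204, plus strand), came next among the leukocyte genes. It had 331 counts, or 170 CPM (153 to 190), in replicate 1 and 455 counts, or 196 CPM (179 to 215), in replicate 2. The intervals overlapped, and the log2 ratio was 0.20 (-0.01 to 0.41). Levels of Mir219a-1 and Mir7b were just above and just below it.

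Mir146, the NF-kB-induced gene on the minus strand of chromosome 11 (43374397 to 43374461), was lower still. It had 105 counts, or 54.1 CPM (44.2 to 65.5), in replicate 1 and 116 counts, or 50.0 CPM (41.3 to 60.0), in replicate 2. The pools overlapped, with a log2 ratio of -0.11 (-0.51 to 0.28). Its seed partner Mir146b, in an intron of Mfsd13a on chromosome 19, had 6 counts in each library, or 3.09 and 2.59 CPM. Nearly all counts at loci with this seed were therefore at Mir146.

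Mir150, the gene of mature lymphocytes on chromosome 7 (45121757 to 45121821, plus strand), was the lowest of the 7. It had 22 counts, or 11.3 CPM (7.10 to 17.2), in replicate 1 and 24 counts, or 10.3 CPM (6.63 to 15.4), in replicate 2. The pools overlapped widely, and its log2 ratio of -0.13 (-1.03 to 0.77) left differences of up to about the 2-fold limit undetectable at this depth. Against Mir223, the myeloid gene, Mir150 was lower by a log2 ratio of 5.04 in replicate 1 and 5.46 in replicate 2.

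The order of mean levels was Mir223, Mir451a, Mir155, Mir146, Mir144, Mir486 and Mir150. A pair was called different when its log2 difference in each library was larger than the difference between the pools for either gene. Of the 21 pairs, 19 met this rule. The exceptions were Mir223 with Mir451a and Mir451a with Mir155. Mir223 was above Mir451a by 0.81 (log2) in replicate 1 and below it by 0.23 in replicate 2, so their order turned between the pools. Mir451a exceeded Mir155 by 0.35 and 1.48. Among the 19, the neighbours Mir146 and Mir144 (0.22 and 0.13) and the neighbours Mir486 and Mir150 (0.49 and 1.01) did not differ beyond counting error in both libraries. That left 17 pairs past both limits. Among all loci, Mir223 stood between Mir206 and Mir449a in mean level, Mir451a between Mir31 and Mir224, Mir146 between Mir668 and Mir218-2, Mir486 between Mir466n and Mir3057, and Mir150 between Mir741 and Gm23388.

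Summed over genes, the counts of the leukocyte side exceeded those of the erythroid side in both pools, by a margin that Mir451a set. The 3 erythroid genes had 280 CPM (257 to 305) in replicate 1 and 614 CPM (583 to 647) in replicate 2. The 4 leukocyte genes had 618 CPM (584 to 654) and 722 CPM (688 to 758). The erythroid sum was 0.453 of the leukocyte sum in replicate 1 and 0.850 in replicate 2. These are sums of counts and not shares of cells. Reads of Mir486 placed at several positions would be missing from the erythroid sum. That sum and its ratio to the leukocyte sum may therefore be too low, and the order of the sums holds only for the counts used.

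Mir451a dominated the erythroid sum as counted. It held 77.8% of it in replicate 1 (74.0% to 81.2%) and 89.1% in replicate 2 (87.4% to 90.7%), while Mir144 held 16.5% and 7.44% and Mir486 5.70% and 3.44%. The erythroid sum was 2.19-fold higher in replicate 2; without Mir451a it was 62.3 CPM in the first pool and 66.8 CPM in the second, a log2 ratio of 0.10 (-0.25 to 0.46). The make-up of the leukocyte sum was more alike: Mir223 held 61.8% and 64.5% of it, Mir155 27.6% and 27.1%, Mir146 8.75% and 6.92%, and Mir150 1.83% and 1.43%. For each of these 4 genes the intervals of the share overlapped between the pools.

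**Figure D3:**
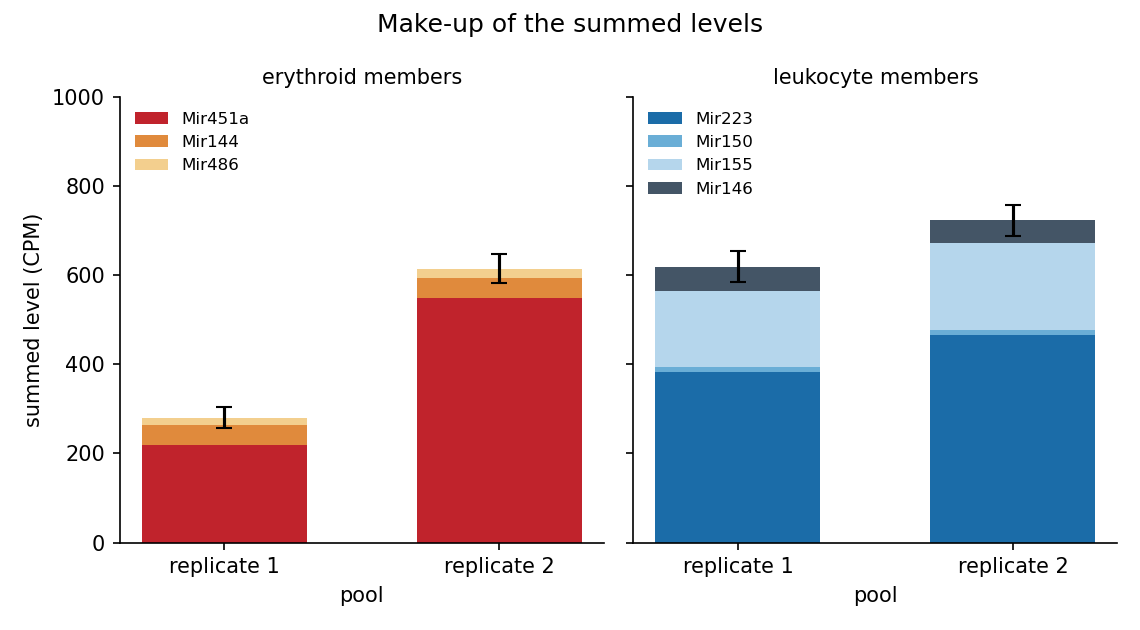
Summed level of the erythroid (left) and leukocyte (right) genes in CPM in each pool, stacked by gene, with exact 95% counting intervals of the sum. The erythroid bars reach 280 and 614 CPM and differ mainly by the Mir451a segment; the leukocyte bars reach 618 and 722 CPM.

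How far the blood genes repeat between the pools was then set against all loci. The ratio was taken for the 363 loci that averaged 10 counts or more, with 0.5 counts added, and a locus was called when it passed 2-fold. Of the 7 blood genes only Mir451a passed, higher in replicate 2, where 3.58% of the 363 loci were called in that direction and 1.65% in the other. A single gene of 7 is not a result about the group. The median log2 ratio was 0.20 over the 7 genes, with 4 higher in replicate 2, and 0.02 over all 363, with 186 higher. The middle 90% of the 363 loci lay between -0.53 and 0.86. The counting intervals of Mir451a and Mir223 lay above 0, which was also so for 24.8% of the 363, and none of the 7 intervals lay below 0, against 20.4%.

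Among loci of like level, Mir451a was near the edge and the others were not. Of the 40 loci nearest to Mir451a in mean level, from 248 to 592 CPM, 2 had a larger ratio in either direction, with a median log2 ratio of 0.04. For Mir223 it was 11 of 40, for Mir155 18 of 40, for Mir486 18 of 40, for Mir146 31 of 40, for Mir150 34 of 40 and for Mir144 38 of 40.

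**Figure D4:**
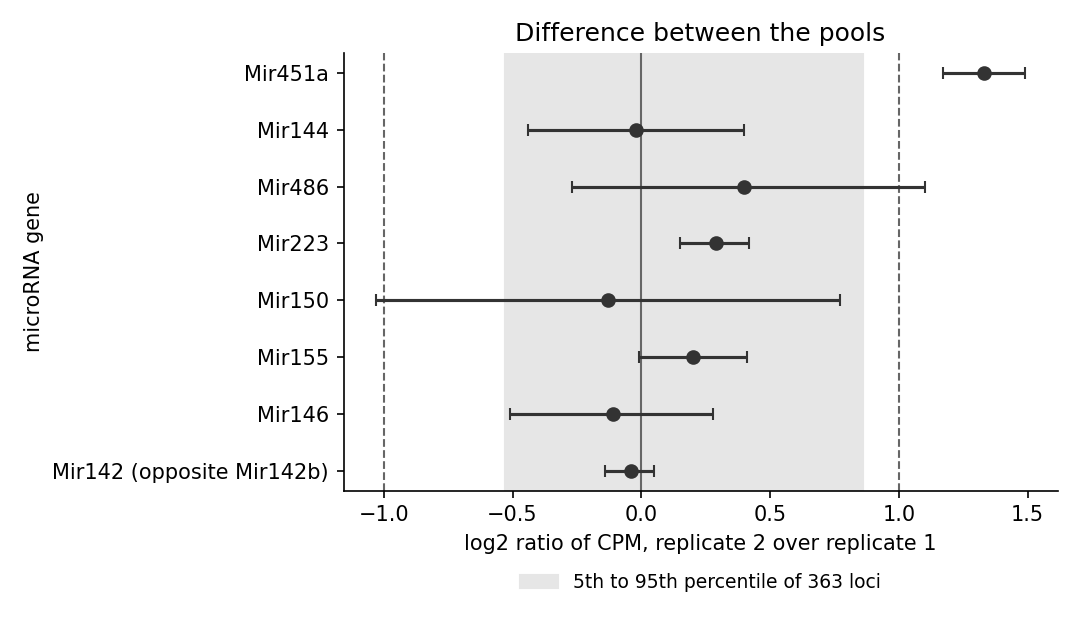
Log2 ratio of CPM in replicate 2 over replicate 1 for each gene with its exact 95% counting interval; dashed lines mark 2-fold and the grey band the 5th to 95th percentile of 363 loci (-0.53 to 0.86). Mir451a, at 1.33, lies outside the band and past the 2-fold line, and the points of the other genes lie inside the band.

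The loci averaging 100 counts or more whose ratio was nearest to that of Mir451a, over these 2 libraries, were Mir208b, Mir351 and Mir208a. Mir208b and Mir208a lie in genes of cardiac myosin heavy chains, and their log2 ratios were 1.84 and 1.93 against 1.33 for Mir451a. Mir351, on the X chromosome beside Mir322 and Mir503, had 0.81. None was closer than 0.51 on the log2 scale, so no locus of that depth had the same ratio.

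Markers of other tissues also differed between the pools, and their part in the Mir451a difference was not tested. Their lists were chosen with earlier results of these data known. Of 5 striated muscle loci that averaged 10 counts or more, 3 passed 2-fold toward replicate 2, against 3.58% of the 363 loci. These were Mir208a, Mir208b and Mir499, at log2 ratios of 1.93, 1.84 and 1.48. Mir206 was at 0.62 and Mir133b at -0.01, so the list was not uniform. The list's summed level was 628 CPM in replicate 1 against 1494 CPM in replicate 2. Its members Mir133a-1 and Mir133a-2 were at 0 in both libraries, and Mir1a-1 had 0 and 1 counts. Mir133a-1 and Mir133a-2 share a mature product, and reads placed at several positions are outside the counts and the list's sum. The zeros of Mir133a-1 and Mir133a-2 therefore do not show that miR-133a was absent. Whether reads of Mir1a-1 were left out in this way was not tested. Of 3 such liver loci 1 passed, Mir122, with 31 and 102 counts, while the list's sum was 203 and 220 CPM; its members Mir192 and Mir194-2 had log2 ratios of 0.03 and -0.21. The liver is a site of red cell formation in the fetus, and whether liver RNA entered either pool was not tested. The 3 loci of lens and eye pigment went the other way, from 2075 CPM to 986 CPM, with log2 ratios of -2.25 for Mir184 and -0.77 for Mir204, the most abundant of them. The endothelial Mir126a was almost level, at 0.05 (0.04 to 0.06), the mesenchymal list, led by Mir214, had a median of 0.10 over 6 loci, and the epithelial list, led by Mir429, had a median of -0.28 over 7.

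**Figure D5:**
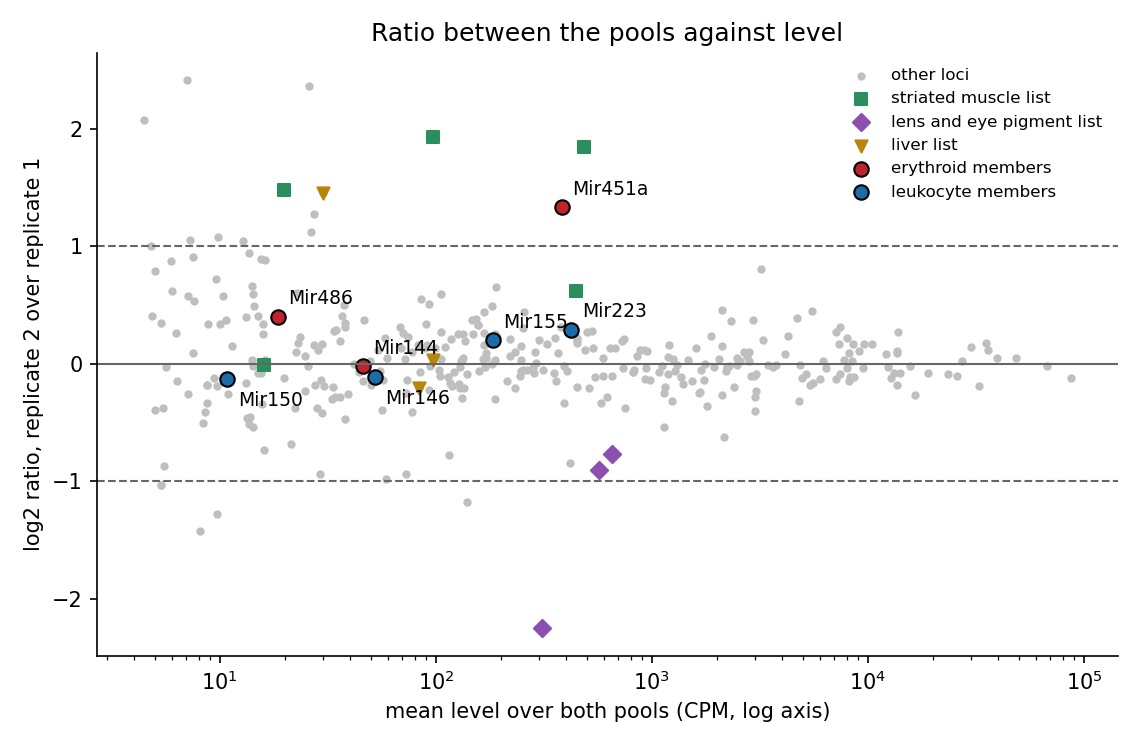
Log2 ratio between the pools against mean level in CPM (log axis) for the 363 loci that averaged 10 counts or more, with the blood genes, the striated muscle, liver and eye lists in colour and dashed lines at 2-fold. Mir451a, at 1.33, lies between the striated muscle loci Mir206 (0.62) and Mir208b (1.84), while Mir144, Mir146 and Mir150 lie near 0.

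Of the remaining loci on the blood cell lists, Mir342 was far the most abundant. It lies in an intron of Evl on chromosome 12 (108658620 to 108658718, plus strand) and is known from lymphocytes and other blood cells, but Evl is also active in neurons. It had 9028 counts, or 4649 CPM, in replicate 1 and 14703 counts, or 6338 CPM, in replicate 2, a log2 ratio of 0.45 (0.41 to 0.48). That was 8.20 times the sum of the 4 leukocyte genes over both pools. Of the 8 loci on the leukocyte list, 7 were measured and 5 reached 10 counts in both libraries, as did 17.8% of all 1973 loci. None of these 5 passed 2-fold, against 5.23% of the 363 loci in either direction, so this is not a result about the list.

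Mir142, which is made across blood cell types, could be read only from the opposite strand of Mir142b. Mir142b is annotated on the minus strand of chromosome 11 (87756841 to 87756955) and had 0 sense counts in both libraries, a floor of 1.55 CPM in the first pool and 1.29 CPM in the second, taken as 3 counts, a one-sided limit. The upper ends of the two-sided exact intervals were 1.90 and 1.59 CPM. On its opposite strand, where Mir142 is annotated, there were 1812 and 2099 counts. They equal 933 CPM (891 to 977) and 905 CPM (867 to 944) of the sense totals, with overlapping intervals and a log2 ratio of -0.04 (-0.14 to 0.05). Read this way, Mir142 was above each of the 7 genes in both pools. With it the leukocyte sum was 1551 CPM in replicate 1 and 1627 CPM in replicate 2.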

How the data were processed

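Total RNA of each pool gave 1 small-RNA library, with inserts under 30 bases, per the labels. Raw counts for each microRNA gene were deposited by the authors, on mm10 with GENCODE M4, per the accompanying text files; aligner and counter are not given in the sources used here. The tables hold counts irrespective of strand, on the sense strand and on the opposite strand; the sense column was used, and it held 97.0% and 96.8% of the stranded counts. Reads assigned to no gene stayed out of the totals: of 4755968 reads in replicate 1, 30.9% were unmapped, 22.7% fell on several positions and 5.51% lay outside the loci, and of 6781929 in replicate 2, 38.6%, 20.5% and 6.75%. Symbols, positions (1-based) and hosts came from GENCODE M21, on the same assembly; 1894 of 1973 identifiers matched without versions.

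CPM used the sense total. The rule for named genes takes the 7 genes, loci within 10 kb, the blood cell lists, neighbours in level and the leading locus of the other lists. For a gene past 2-fold it also takes the 3 loci nearest in ratio (mean count of at least 100). Named beyond the rule, after values were seen, were Mir184, Mir192, Mir194-2, Mir122, Mir499, Mir133b, Mir133a-1, Mir133a-2 and Mir1a-1. The 40 loci of like level were also chosen then. Members and lists were chosen with earlier results of these data known. Folds came from RNAfold 2.7.2. Library factors and the coefficient of variation (intercept-only model) came from edgeR 4.0.16 and DESeq2 1.42.0 under R 4.3.3, the rest from scipy 1.17.1, pandas 2.3.3, matplotlib 3.10.9 and numpy 2.4.6 under Python 3.11.15. Steps were tested on simulated libraries. Nothing in the labels names molecular identifiers.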

Additional observations from a re-analysis of the deposited data

Results flagged for a closer look

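The strand opposite Mir142b, which the main measurement leaves out, held 1812 counts in replicate 1 and 2099 counts in replicate 2, above 3 counts, the one-sided limit used for a count of 0. Mir142 is annotated on that strand.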

How the results depend on the processing

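No paired analysis was possible because there is 1 group. Scaling with edgeR or DESeq2 factors moved no level by more than its SD and no ratio out of its counting interval, nor did 5 added counts; Mir451a remained past 2-fold under every scaling and minimum tried, the only one of the 7 genes, also at a 1.5-fold limit. Scaling to all mapped reads lowers all levels by construction: Mir451a to 217, the erythroid sum to 254, Mir223 to 243, Mir155 to 105, Mir146 to 29.9, Mir144 to 26.4, Mir486 to 10.6, Mir150 to 6.23 and the leukocyte sum to 384 reads per 1000000. The column irrespective of strand gave 44.6 CPM for Mir144. Mir144 had 0 opposite-strand counts in both libraries, so its lower value came from the larger total of that column. Crediting opposite-strand counts gave a leukocyte sum of 1589 CPM. Over all loci, 5 passed 2-fold with a minimum mean count of 100 and 46 passed 1.5-fold, against 19. At least 100 counts in both libraries left 4 of the 7 genes and 253 of all 1973 loci. With at least 1 count in both, it was all 7 genes and 563 loci. Without replicate 1 or 2 the mean level is the other pool's value: Mir451a 218 to 547, Mir144 45.7 to 46.4, Mir486 16.0 to 21.1, Mir223 382 to 466, Mir150 10.3 to 11.3, Mir155 170 to 196, Mir146 50.0 to 54.1, the erythroid sum 280 to 614 and the leukocyte sum 618 to 722 CPM; the log2 ratio of Mir451a over Mir144 was 2.23 to 3.58. Depth limits Mir150 and Mir486, with under 50 counts a library.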
